A study of Mus musculus with 10 samples.

Results

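Library 7, which received scramble siRNA, was set against library 6, which received none, in mouse renal proximal tubule cells that had both been given H2O2 and Wnt3a. A gene entered the comparison when it stood in the authors' list of genes for libraries 1, 2, 5 and 6, had an FPKM of 5 or more in library 7 or library 6, and was listed at 0 in neither. FPKM, fragments per kilobase of transcript scaled to the mapped fragments of the library, is a level already divided by transcript length. Of 1852 genes in that list, 1851 were found by identifier among the 46509 genes measured in library 7, and 199 were compared, 10.7% of the list. A further 1651 were below 5 FPKM in both libraries, and Snora64, a small nucleolar RNA, stood at 12.3 FPKM in library 6 with a listed value of 0 in library 7. The list holds genes whose log2 ratio of library 2 over library 1 was above 0.5, that is, genes higher with Wnt3a than with its buffer in cells without siRNA or H2O2. Levels in libraries 7 and 6 did not choose it. All values below therefore describe Wnt3a-raised genes and not the transcriptome.

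The series has 10 libraries, 1 for each group, with no replicates, so no test between conditions was possible and sizes are given without p-values or errors. All 4 libraries 7, 8, 9 and 10 came from cells given siRNA, 100 uM H2O2 and 20 ng/mL Wnt3a: scramble siRNA in library 7, siRNA to FoxO1 in library 8, siRNA to FoxO3 in library 9 and siRNA to both in library 10. Libraries 3 and 4 received Wnt3a without H2O2, library 3 with scramble siRNA and library 4 with siRNA to FoxO1 and FoxO3. No siRNA was used for libraries 6, 5, 2 and 1. Library 6 received H2O2 and Wnt3a at the same doses, library 5 H2O2 with no Wnt treatment entered, library 2 Wnt3a alone and library 1 the Wnt diluting buffer alone. All cells were conditionally immortalized, from a cross of mice with a floxed TbRII gene on an N2 FVB background with the Immorto-mouse, whose temperature-sensitive T antigen is driven by an interferon-inducible promoter. Per the labels, siRNA was given at 33 °C, and cells were then moved to 37 °C with interferon gamma taken away. The labels give one protocol for every library and do not say whether cells without siRNA received the transfection reagent, so siRNA, reagent and handling cannot be told apart. The stated aims of the study compare other pairs of libraries, and no question is stated for library 7 against library 6.

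A scramble siRNA is a short double-stranded RNA whose sequence is meant to match no transcript, used as the control for siRNAs that do. Double-stranded RNA is recognised in many cells by sensors that raise interferon-stimulated genes, and the vitamin A, chemokine and acute-phase genes described below respond in epithelial cells to retinoid, NF-kB and cytokine signals. Wnt3a is a secreted ligand that stabilises beta-catenin, which with TCF and LEF factors raises feedback genes such as Axin2. H2O2 is an oxidant used to stress the tubule, the nephron segment most often hurt in acute kidney injury.

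Of 18 markers of the proximal tubule, 4 reached 1 FPKM in library 7 (Aqp1 at 14.3, Cdh6 at 16.0, Lrp2 at 14.0 and Slc4a4 at 9.17 FPKM), and 9 were listed at 0, Hnf4a and Slc34a1 among them. Other markers at 1 FPKM or more were Fbln1 among 7 of fibroblasts, Cd68 and Csf1r among 6 of leukocytes and Synpo and Wt1 among 5 of podocytes, while none of 5 endothelial and none of 6 distal nephron markers reached it. Library 6 has a value for at most 1 marker of each kind, so a difference in cell makeup between libraries 7 and 6 was not tested. Fewer cells of a type and less RNA per cell cannot be told apart in these bulk samples. Foxo1 was at 7.95 FPKM in library 7, 3.66 in library 8, 8.54 in library 9 and 4.67 in library 10. Foxo3 was at 19.7, 17.7, 19.9 and 17.4 FPKM in the same order, so it was not lower in library 9, called below the library labelled FoxO3 siRNA. Neither gene is in the list with library 6 values. Libraries 7 and 6 come from tables that were scaled separately, so table and siRNA cannot be told apart either. A rough estimate from 602 genes under 0.3 FPKM in both put the depth of library 7 at 1.04 times that of library 6. The separate scaling enters this estimate, and the depth of each library is unknown. The summed level of the 199 genes was 9584 FPKM in library 7 and 9654 FPKM in library 6.

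Most of the Wnt3a-raised genes compared differed by less than 2-fold between scramble siRNA and none. On the scale log2((library 7 FPKM + 1)/(library 6 FPKM + 1)), called the ratio from here on, the median gene stood at -0.02 and the middle 50% of genes lay between -0.28 and 0.23. Folds here and below are of FPKM + 1, so for weak genes they are smaller than the fold of the printed levels. A log2 ratio of 1, a 2-fold difference on this scale, was reached by 6 genes that were higher with scramble siRNA (3.02% of those compared). A ratio of -1 was reached by 10 that were lower (5.03%). With 0.1 FPKM added in place of 1, the counts were 9 higher and 13 lower. With a smaller size of 0.58, about 1.49-fold, 18 genes were higher (9.05%) and 26 lower (13.1%), and 155 lay between. Among named genes, with small RNA, predicted and similar symbols set aside, the highest were the 2 neighbouring aldehyde dehydrogenases Aldh1a1 and Aldh1a7 and the chemokine Ccl20. The lowest were Selo, Saa3, Epha7, Ms4a4d, Lbp and Nos2 in that order. The spread of the ratios, as the scaled median absolute deviation, was 0.430 for the 80 genes with a mean under 10 FPKM, 0.364 for the 86 between 10 and 50 and 0.288 for the 33 above 50.

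**Figure D1:**
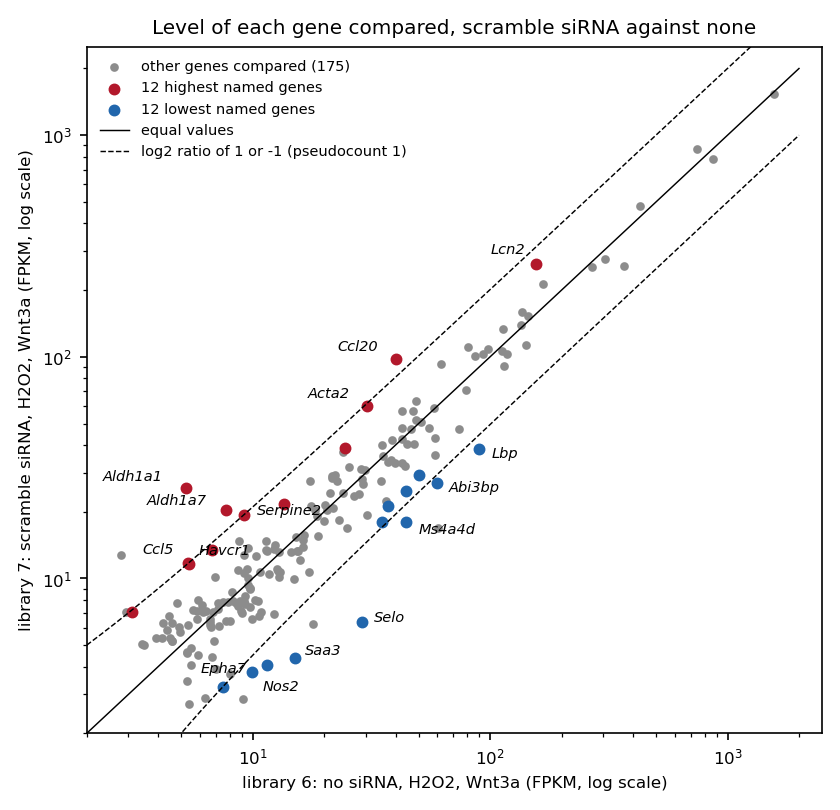
Each point is 1 of the 199 genes, with its FPKM in library 7 (scramble siRNA, vertical axis) and in library 6 (no siRNA, horizontal axis), both on log scales. The solid line marks equal values and the dashed lines a ratio of 1 or -1. Aldh1a1 (25.7 FPKM in library 7 and 5.23 in library 6) lies farthest above them and Selo (6.39 FPKM in library 7 and 28.8 in library 6) farthest below.

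Retinoid enzymes held the largest differences upward. Aldh1a1, which makes retinoic acid from retinal, lies on chromosome 19 (GRCm38, 20492715 to 20643465). It had 25.7 FPKM in library 7, 34.1 in library 8, 84.6 in library 9 and 43.3 in library 10, against 5.23 in library 6, 2.69 in library 5, 13.4 in library 2 and 7.17 in library 1. All 4 libraries with siRNA were above all 4 without it, and the ratio was 2.10, or 4.28-fold with 1 FPKM added to each level. Here and below, of the libraries without siRNA only library 6 had both H2O2 and Wnt3a, as libraries 7 to 10 did. Aldh1a7, a close paralog that starts downstream on the other strand (20692953 to 20727562), was at 20.5, 26.2, 61.7 and 33.2 FPKM in libraries 7 to 10, against 7.71 in library 6, 6.21 in library 5, 28.8 in library 2 and 18.5 in library 1. Here the groups overlapped, since library 2 was above libraries 7 and 8, and the ratio was 1.30. The paralogs are alike in sequence and reads may have been split between them, so the pair is uncertain as separate genes. Aldh1a2, another retinal dehydrogenase, was level at 23.4 FPKM in library 7 and 26.6 in library 6, a ratio of -0.18. Stra6, the cell-surface receptor that takes up vitamin A from its carrier, was lower, with 3.91, 2.74, 3.66 and 3.04 FPKM in libraries 7 to 10, against 7.01 in library 6, 0.356 in library 5, 2.78 in library 2 and 0.430 in library 1, and a ratio of -0.71. Of the 4 retinoid genes compared, out of 5 in the list with library 6 values and 19 looked for, 2 were thus higher and 1 lower past 0.58, with a median of 0.56 beside -0.02 for all genes. That median rests on few genes and was 0.01 with no minimum level and 1.30 with a minimum of 10 FPKM.

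Among chemokines and cytokines, 12 of 38 listed genes were compared, with 2 higher, 1 lower and a median of 0.01, so the list as a whole sat where all genes did. Ccl20, the ligand of the receptor CCR6 (chromosome 1, 83116766 to 83119167), had 97.7 FPKM in library 7, 137 in library 8, 141 in library 9 and 83.4 in library 10, against 40.1 in library 6, 5.80 in library 5, 38.8 in library 2 and 9.24 in library 1. Every siRNA library was above every library without siRNA, with a ratio of 1.26. Ccl5, a chemokine that draws T cells and monocytes, was at 11.6 FPKM in library 7, 16.5 in library 8, 3.75 in library 9 and 7.49 in library 10, against 5.38 in library 6, and its ratio was 0.98. The library labelled FoxO3 siRNA lay under library 6, so the order of siRNA and no siRNA did not hold for Ccl5 throughout.

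Ccl7, a monocyte chemokine beside Ccl2 on chromosome 11, was lower at 35.9, 28.5, 48.0 and 32.8 FPKM in libraries 7 to 10, against 58.8 in library 6, a ratio of -0.70. Ccl2 itself was the most abundant gene compared and did not share that difference, with 1527 FPKM in library 7 and 1565 in library 6, a ratio of -0.03. The neutrophil chemokines of chromosome 5 went separate ways. Ppbp, which is not in the list counted above, was at 27.5 FPKM in library 7 and 17.5 in library 6 (0.63). Cxcl1 was at 866 FPKM in library 7 and 745 in library 6 (0.22). Cxcl5, next to Ppbp, was at 256 FPKM in library 7 and 365 in library 6 (-0.51), with 252, 424 and 274.6 in libraries 8, 9 and 10. Others of the list were Cxcl3 with a ratio of -0.29, Csf2 with -0.28, Lif with -0.21, Cxcl11 with 0.05, Cxcl10 with 0.13 and Cxcl16 with 0.18. Il33, an alarmin of epithelial cells, missed the minimum level at 2.27, 2.33, 2.14 and 2.10 FPKM in libraries 7 to 10, against 0.604 in library 6, and is given for its values only, chosen after they were seen.

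The acute-phase and innate effector list had 7 genes compared of 25, of which 1 was higher and 3 lower past 0.58, with a median of -0.55. Of the 3 lower genes, Saa3 and Nos2 reached 5 FPKM only in library 6, so the minimum admitted them through the library where they were high. Serpina3n (1.74 FPKM in library 7 and 2.08 in library 6) and Serpina3g (1.00 in library 7 and 1.30 in library 6) were below it in both and were not compared. The median was -0.22 with a minimum of 1 FPKM or none and -0.38 with a minimum of 10 FPKM. All 7 were higher in library 6 than in library 5, that is, with Wnt3a added to H2O2, as were 86.4% of all genes compared. Saa3, a serum amyloid A protein of inflamed tissue (chromosome 7, 46711998 to 46715700), had 4.40 FPKM in library 7, 4.67 in library 8, 12.7 in library 9 and 4.44 in library 10, against 15.1 in library 6, 0.105 in library 5, 0.402 in library 2 and 0.0788 in library 1. Library 6 was above each siRNA library, the library labelled FoxO3 siRNA came closest to it, and the ratio was -1.57. Lbp, which hands bacterial lipopolysaccharide to its receptor (chromosome 2, 158306493 to 158332852), was at 38.3, 36.8, 49.1 and 46.1 FPKM in libraries 7 to 10, against 90.0 in library 6, 6.00 in library 5, 19.7 in library 2 and 4.46 in library 1, a ratio of -1.21. Nos2, the inducible nitric oxide synthase (chromosome 11, 78920787 to 78960254), was at 3.77, 3.50, 3.94 and 3.48 FPKM in libraries 7 to 10, against 9.94 in library 6, 0.00787 in library 5, 0.748 in library 2 and 0.0148 in library 1, a ratio of -1.20. For Lbp and Nos2, libraries 7 to 10 lay between library 6 above and libraries 5, 2 and 1 below.

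Lcn2, which binds bacterial siderophores and is released by hurt tubules, was the exception in the acute-phase list (chromosome 2, 32384633 to 32388252). It had 262, 268, 280.4 and 225 FPKM in libraries 7 to 10, against 157 in library 6, 0.803 in library 5, 51.8 in library 2 and 0.106 in library 1. No siRNA library overlapped those without siRNA, and the ratio was 0.74. The complement component C3 had 16.8 FPKM in library 7 and 25.0 in library 6 (-0.55), the transcription factor Cebpd 47.7 FPKM in library 7 and 55.6 in library 6 (-0.22), and the copper carrier Cp 276 FPKM in library 7 and 305 in library 6 (-0.14).

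Ms4a4d and Epha7 were lower with each siRNA. Ms4a4d, a membrane protein of the MS4A family (chromosome 19, 11536801 to 11558467), was at 18.1, 23.8, 23.2 and 16.6 FPKM in libraries 7 to 10, against 44.4 in library 6, 3.13 in library 5, 24.2 in library 2 and 4.87 in library 1, a ratio of -1.25. Epha7, an ephrin receptor (chromosome 4, 28813131 to 28967499), was at 4.07, 4.19, 3.78 and 4.63 FPKM, against 11.6 in library 6, 6.32 in library 5, 7.73 in library 2 and 2.11 in library 1, a ratio of -1.31. For both genes the 4 siRNA libraries lay below the 2 libraries given Wnt3a without siRNA. Library 2 is high relative to library 1 by the choice of the list. For Ms4a4d it was close to the highest siRNA library (24.2 FPKM in library 2 and 23.8 in library 8). Abi3bp, a protein of the extracellular matrix, was at 26.8, 22.3, 48.4 and 27.5 FPKM in libraries 7 to 10, against 59.6 in library 6, 17.8 in library 5, 16.7 in library 2 and 6.50 in library 1, a ratio of -1.12, and only library 6 stood above all the siRNA libraries.

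The promoters of genes past 0.58 were read for 3 short motifs on both strands, from 250 bases before to 50 after each start (RefSeq, GRCm38.p6). They were found for 12 of the 18 higher and 12 of the 26 lower genes, with all starts of a gene read together. None of the 12 higher genes held any of them. Only the letters given next were searched, so sites with other letters were not counted. Among the 12 lower genes, the kB core GGGANTTTC was in 1, the TCF/LEF motif CTTTGAT in 2 and the core of the interferon-stimulated response element, GAAANNGAA, in 1. Of all 32851 promoters, each read alone, 1.11% held the first motif, 3.73% the second and 8.56% the third. Among 105 other genes compared, with starts read together as for the 12, the shares were 4.76%, 4.76% and 7.62%. The kB match was in B230307C23Rik. The matching promoters of the named lower genes Saa3, Ms4a4d and Stra6 are shown as examples of what the search found, read on the strand of the gene. Capitals mark the match, on either strand: the third motif in Saa3 (chr7:46715627-46715926, minus strand) and the reverse complement of the TCF/LEF motif in Ms4a4d (chr19:11536544-11536843, plus strand) and Stra6 (chr9:58129099-58129398, plus strand).
Saa3: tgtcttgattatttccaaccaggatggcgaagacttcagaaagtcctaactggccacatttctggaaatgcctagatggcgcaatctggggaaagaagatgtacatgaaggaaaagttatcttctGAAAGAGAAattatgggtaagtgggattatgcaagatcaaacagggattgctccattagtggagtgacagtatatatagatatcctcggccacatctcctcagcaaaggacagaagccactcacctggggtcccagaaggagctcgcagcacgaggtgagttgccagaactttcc
Ms4a4d: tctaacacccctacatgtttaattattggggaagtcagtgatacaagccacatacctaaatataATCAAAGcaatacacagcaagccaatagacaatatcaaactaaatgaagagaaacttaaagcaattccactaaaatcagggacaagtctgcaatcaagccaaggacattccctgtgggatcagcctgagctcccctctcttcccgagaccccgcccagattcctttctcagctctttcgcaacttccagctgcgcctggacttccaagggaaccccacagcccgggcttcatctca
Stra6: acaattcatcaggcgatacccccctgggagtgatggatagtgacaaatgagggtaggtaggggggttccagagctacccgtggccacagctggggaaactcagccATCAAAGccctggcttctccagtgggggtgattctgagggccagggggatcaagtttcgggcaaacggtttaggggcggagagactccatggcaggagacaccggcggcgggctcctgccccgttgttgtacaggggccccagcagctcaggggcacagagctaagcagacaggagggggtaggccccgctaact

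Selo, which encodes selenoprotein O, a mitochondrial selenoprotein, had the lowest ratio of all, -2.01 (chromosome 15, 89089084 to 89100340). Its levels were 6.39, 16.3, 32.3 and 6.68 FPKM in libraries 7 to 10, against 28.8 in library 6, 16.4 in library 5, 25.9 in library 2 and 5.33 in library 1. They varied as widely within each set of 4 libraries as between the sets, with low values in libraries 7, 10 and 1. Of its exonic bases 26.7% are shared with Tubgcp6 on the opposite strand, so reads of the pair cannot be told apart without strand.

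In the matrix and injury lists, Havcr1, Acta2 and Lcn2 were past 0.58, all higher. Havcr1, the injury marker also called KIM-1 (chromosome 11, 46735080 to 46779578), had 11.7, 17.4, 8.18 and 11.1 FPKM in libraries 7 to 10, against 5.35 in library 6, 3.12 in library 5, 16.9 in library 2 and 10.1 in library 1. The siRNA libraries were above both libraries given H2O2 without siRNA, yet overlapped those without H2O2, and the ratio was 1.00. Acta2, the smooth muscle actin of contractile cells (chromosome 19, 34241090 to 34255590), showed the same order, with 60.0, 67.1, 44.0 and 46.0 FPKM in libraries 7 to 10, against 30.2 in library 6, 26.6 in library 5, 97.8 in library 2 and 64.6 in library 1, and a ratio of 0.97. Myl9, a myosin light chain, was at 7.73 FPKM in library 7 and 4.79 in library 6 (0.59). Tgfb2 and Mmp9 had ratios of 0.39 and 0.32 and Tgfb3 of -0.13. The matrix and TGF-beta list thus had 1 of 4 genes past 0.58, higher, and a median of 0.35. For tubular injury it was 2 of 3 (Havcr1 and Lcn2), with a median of 0.74, the third gene being Ccl2.

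Serpine2, a secreted inhibitor of serine proteases such as thrombin (chromosome 1, 79794197 to 79861180), had 19.3, 21.0, 31.5 and 29.8 FPKM in libraries 7 to 10, against 9.19 in library 6, 6.85 in library 5, 4.98 in library 2 and 3.47 in library 1. The groups did not overlap, and the ratio of 0.99 was just under 1. Galnt14, which starts mucin-type sugar chains, was at 7.06, 4.75, 6.44 and 7.10 FPKM in libraries 7 to 10, against 3.11 in library 6 and at most 4.22 in the other 3 without siRNA (0.97). Abcb1b, the drug exporter P-glycoprotein, had 21.8, 22.2, 20.2 and 22.5 FPKM in libraries 7 to 10, against 13.5 in library 6, 7.91 in library 5, 12.3 in library 2 and 8.57 in library 1. Its siRNA libraries were close to one another and apart from the rest, with a ratio of 0.65. Sbsn, a secreted protein of stratified epithelia, followed the same order at 38.7 to 46.4 FPKM with siRNA, against 13.3 to 26.3 FPKM without, and a ratio of 0.64. Zhx2, a transcriptional repressor, was at 13.4, 10.2, 4.33 and 13.2 FPKM in libraries 7 to 10, against 6.77 in library 6 (0.89), with the library labelled FoxO3 siRNA below library 6.

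**Figure D2:**
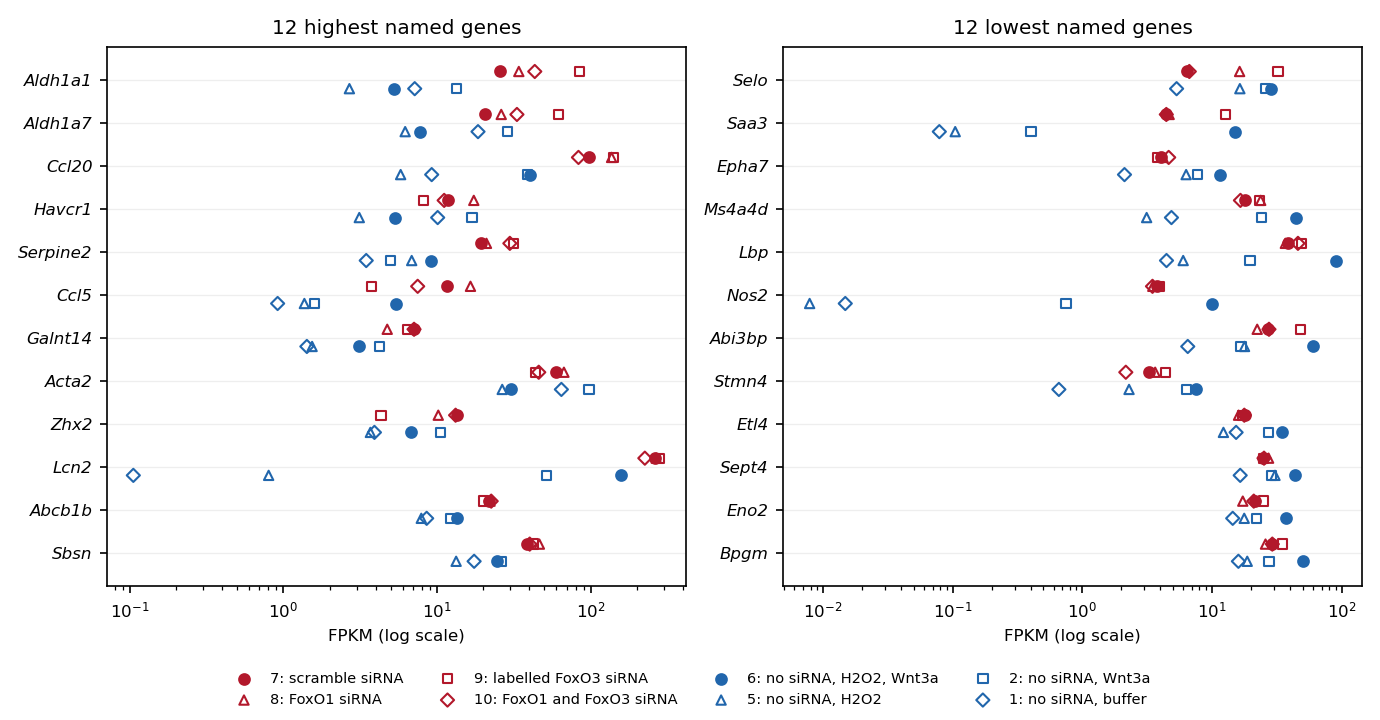
FPKM on a log scale for the 12 highest and 12 lowest genes that the naming rule takes, with libraries given siRNA in red (library 7 filled) on the upper line of each gene and libraries without siRNA in blue (library 6 filled) on the lower line. For Abcb1b the red points lie at 20.2 to 22.5 FPKM and the blue ones at 7.91 to 13.5, while for Nos2 the red ones lie at 3.48 to 3.94 and library 6 alone at 9.94.

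Genes of Wnt feedback were all within 0.58 of 0. Axin2, a negative regulator of beta-catenin and the usual readout of Wnt signalling, had 20.3, 19.5, 17.0 and 20.6 FPKM in libraries 7 to 10, against 20.6 in library 6, 1.02 in library 5, 12.5 in library 2 and 0.638 in library 1. All 5 libraries with both H2O2 and Wnt3a lay between 17.0 and 20.6 FPKM, above library 5, and the ratio of -0.02 was the median of all genes compared. Of the other genes on the Wnt list, the Wnt inhibitor Apcdd1 was at 6.55 FPKM in library 7 and 9.97 in library 6 (-0.54), Prr5l had a ratio of 0.16 and the growth factor Bmp4 of 0.36. With 4 of 32 compared, none past 0.58 and a median of 0.07, this list lay near all genes.

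The NF-kB list of subunits and feedback genes had 5 of 28 compared and none past 0.58. The inhibitor Nfkbia (43.1 FPKM in library 7 and 58.7 in library 6) was at -0.44. Bcl3 (9.99 FPKM in library 7 and 14.9 in library 6) was at -0.54. The feedback genes Nfkbiz (111 FPKM in library 7 and 80.6 in library 6), Tnfaip3 (29.0 in library 7 and 21.5 in library 6) and Zc3h12a (10.9 in library 7 and 8.66 in library 6) were at 0.46, 0.42 and 0.30, which gave a median of 0.30. Of interferon-stimulated genes, 6 of 52 had library 6 values and all were under 5 FPKM in libraries 7 and 6. Apol9a had 2.79 FPKM in library 7 and 1.87 in library 6, Apol9b 1.89 in library 7 and 0.854 in library 6, and Gbp6 0.498 in library 7 and 0.00205 in library 6. Oas1b had 1.19 FPKM in library 7 and 1.18 in library 6, Zbp1 0.771 in library 7 and 0.636 in library 6, and Oas1g 0.757 in library 7 and 0.801 in library 6. Of RNA sensing genes only Tlr7 had a library 6 value, 0.121 FPKM, and it was listed at 0 in library 7. No gene of the interferon-stimulated list was therefore compared. Outside that list, 4 genes known to respond to interferon, chosen after their values were seen, were compared and lay near 0. They are not all such genes: Ccl5 (0.98) and Nos2 (-1.20), which can also respond to interferon, were not near 0. An interferon response was thus not tested. Gbp9, a guanylate-binding protein, was at 21.3 FPKM in library 7 and 17.6 in library 6 (0.27), and Plscr1, a scramblase, at 42.4 in library 7 and 38.8 in library 6 (0.12). The chemokine Cxcl10 was at 103 FPKM in library 7 and 93.6 in library 6 (0.13), and Cxcl11 at 7.08 in library 7 and 6.79 in library 6 (0.05).

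Transporters had 7 genes compared, 1 of them higher (Abcb1b) and none lower, with a median of 0.24, which was 0.05 with a minimum of 10 FPKM. The urate carrier Slc2a9 was at 5.00 FPKM in library 7 and 3.49 in library 6 (0.42), the prostaglandin carrier Slco2a1 at 27.4 FPKM in library 7 and 22.8 in library 6 (0.26), and the iron carrier Slc11a2 at 27.4 in library 7 and 34.7 in library 6 (-0.33). Slc16a13 was at 12.1 FPKM in library 7 and 15.9 in library 6 (-0.36), Slc20a1 had a ratio of 0.24 and Slc35f5 one of -0.14. In the prostaglandin list Ptgs2, the inducible cyclooxygenase, had a ratio of 0.50 beside Slco2a1. Glycolysis had a single gene compared, the enolase Eno2, at 21.3, 17.3, 25.0 and 21.0 FPKM in libraries 7 to 10, against 37.1 in library 6, 17.7 in library 5, 22.2 in library 2 and 14.5 in library 1 (-0.77). Bpgm, a mutase beside the same pathway, was at 29.2, 25.9, 34.9 and 29.2 FPKM in libraries 7 to 10, against 50.3 in library 6, 18.7 in library 5, 27.5 in library 2 and 16.0 in library 1 (-0.76). In both, library 6 alone was high. The immediate early genes Ier3 (0.14) and Fosl2 (-0.12), the apoptosis genes Bag1 (-0.32) and Casp4 (-0.11), the complement list's C3 (-0.55) and Serpine2 (0.99) and the kinase Jak2 (-0.04) complete the listed genes. The other 21 of 35 lists, interferon-stimulated and RNA sensing genes included, had no gene compared.

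**Figure D3:**
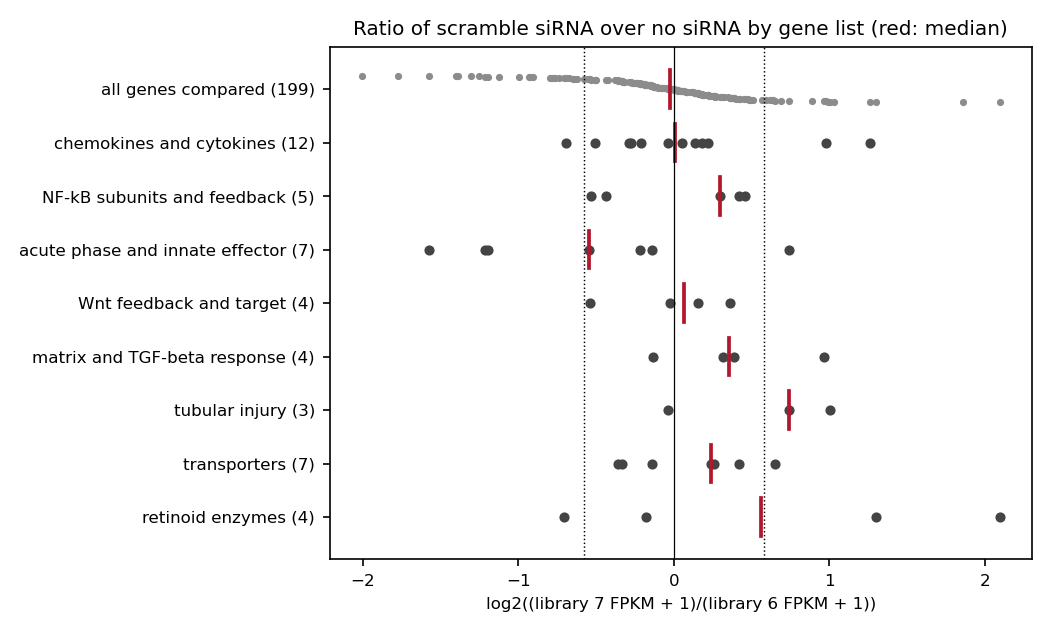
Each point is the ratio of library 7 over library 6 for 1 gene (horizontal axis, log2), for all 199 genes and for the 8 lists with at least 3 genes compared, whose numbers stand in brackets. Red bars are medians and dotted lines mark 0.58 either way. The acute-phase median of -0.55 lies lowest and the tubular injury median of 0.74, from 3 genes, highest.

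More of the lower genes completed the 12 lowest. Stmn4, a microtubule regulator of the stathmin family, was at 3.24, 3.64, 4.37 and 2.16 FPKM in libraries 7 to 10. It was at 7.47 FPKM in library 6, 2.29 in library 5, 6.33 in library 2 and 0.659 in library 1 (-0.998, just short of -1). Etl4 was at 18.0, 16.0, 17.2 and 17.8 FPKM in libraries 7 to 10, against 35.0 in library 6, 12.3 in library 5, 27.3 in library 2 and 15.4 in library 1 (-0.92). Sept4, a septin of the cytoskeleton, was at 24.9, 27.3, 24.9 and 25.2 FPKM in libraries 7 to 10, against 44.1 in library 6, 30.6 in library 5, 28.8 in library 2 and 16.5 in library 1 (-0.80). The siRNA libraries of Etl4 and Sept4 differed among themselves far less than from library 6. Among genes the naming rule leaves out, the small RNA Gm24727 (1.86) and 4833427G06Rik (1.03) were 2-fold higher, and the small RNA Gm27605 (-1.77), B230307C23Rik (-1.40) and mt-Atp8 (-1.39) were 2-fold lower. mt-Atp8 shares 21.1% of its exonic bases with mt-Atp6.

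Libraries 8, 9 and 10 carry siRNA, H2O2 and Wnt3a as library 7 does and were not used to choose the genes, so they show how far libraries of that kind differed from one another. Over the 198 genes with values in all 4, the spread of the ratio was 0.384 for library 7 over 6, against 0.209 for library 8 over 7, 0.289 for library 9 over 7 and 0.175 for library 10 over 7. At 2-fold, 2 genes were higher and 1 lower in library 8 over 7 (1.01% and 0.505%), 5 and 5 in library 9 over 7 (2.53% each) and 2 and 2 in library 10 over 7 (1.01% each). Ratios over library 6 spread as widely with another siRNA library in place of 7, at 0.467 for library 8, 0.388 for library 9 and 0.394 for library 10. All of these share library 7 or library 6, and those over library 6 alone join tables scaled separately.

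**Figure D4:**
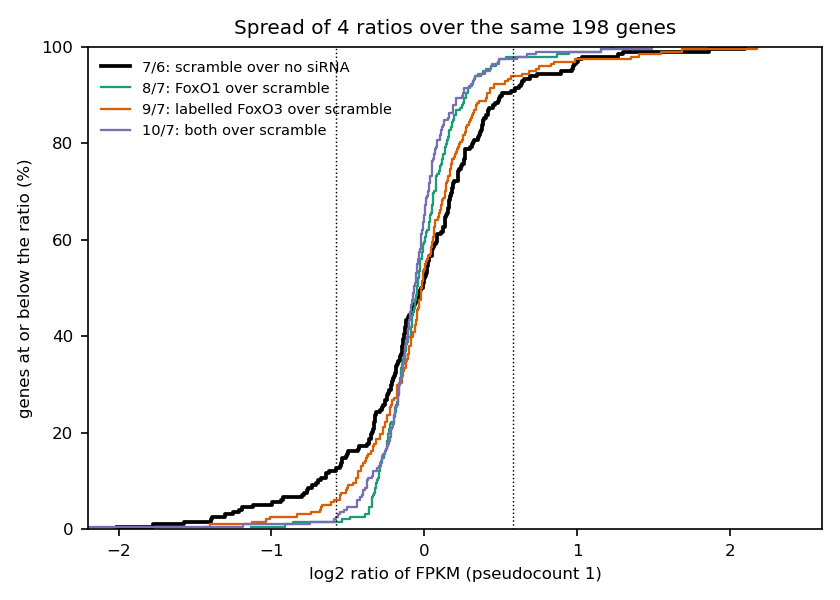
Cumulative share of the same 198 genes (vertical axis, percent) at or below each log2 ratio (horizontal axis) for library 7 over 6 and for libraries 8, 9 and 10 over 7, with dotted lines at 0.58 either way. The black curve of library 7 over 6, with a spread of 0.384, is the flattest, and that of library 10 over 7, at 0.175, the steepest.

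Library 6 lay below all of libraries 7 to 10 for 43 of the 198 genes (21.7%) and above all of them for 70 (35.4%). With libraries 8, 9 and 10 alone the counts were 43 (21.7%) and 76 (38.4%). Some library is lowest and some highest for every gene, and no such share was computed for another library. The median ratio over library 6 was -0.096 for library 8, -0.044 for library 9 and -0.094 for library 10, across tables scaled separately. For 21 genes (10.6%) the 4 siRNA libraries were all above the 4 libraries without siRNA. Beside Aldh1a1, Ccl20, Serpine2, Galnt14, Lcn2, Abcb1b, Sbsn, Ppbp and Slc2a9 these were Zbtb38, Aldh2, Igfbp2, Nog, Zc3h12a, Crim1, Rnd3, Ntn1, Sema3c and 3 genes without a common name. Against libraries 2 and 6 alone the count was also 21. Libraries 1 and 5 had no Wnt3a, with which the genes were chosen to be higher, so they add little to this count. Some gaps were small: for Sema3c the lowest siRNA library had 47.4 FPKM and the highest without siRNA 46.6. Igfbp2, which binds insulin-like growth factors, had 214, 195, 228 and 234 FPKM in libraries 7 to 10, against 167 in library 6, 108 in library 5, 187 in library 2 and 112 in library 1, a ratio of only 0.36. Aldh2, the mitochondrial aldehyde dehydrogenase, had 63.2, 57.8, 77.6 and 55.9 FPKM in libraries 7 to 10, against 48.6 in library 6, 38.9 in library 5, 43.2 in library 2 and 29.6 in library 1 (0.37). Kdm1b, a histone demethylase, was the 1 gene (0.505%) with all siRNA libraries below all without, at 6.09, 5.02, 5.57 and 5.08 FPKM in libraries 7 to 10, against 7.24 in library 6, 7.86 in library 5, 8.65 in library 2 and 6.10 in library 1. The genes were chosen for being low in library 1 relative to library 2, and counts above and below are not expected to be equal. Below the 2 libraries with Wnt3a and no siRNA, 2 and 6, the siRNA libraries lay for 23 genes (11.6%). Library 2 is high relative to library 1 by the choice of genes, so that choice may have raised this count. Genes named in these sentences were chosen after their values were seen.

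The same contrast without H2O2, library 3 (scramble siRNA, Wnt3a) over library 2 (Wnt3a), could be set beside it for 12 genes, those that are also in the authors' second list, which holds genes that differed between libraries 4 and 3 and between 10 and 7. Aldh1a1 was at 73.6 FPKM in library 3 and 13.4 in library 2, a ratio of 2.37 beside 2.10 with H2O2. Serpine2 was at 15.9 FPKM in library 3 and 4.98 in library 2, a wider gap than the 0.99 with H2O2. Ccl5 was at 3.53 FPKM in library 3 and 1.6 in library 2, a ratio of 0.80 beside 0.98, and Stmn4 at 1.12 FPKM in library 3 and 6.33 in library 2, -1.79 beside -0.998. The same direction held in 10 of the 12 genes, and 7 of them were past 0.58 with and without H2O2. Of the 10 genes of both lists with 5 FPKM or more in library 3 or 2, 20% were higher and 40% lower past 0.58 in library 3 over 2. The first list was chosen on values of libraries 1 and 2 and the second on values of libraries 3, 4, 7 and 10. Libraries 2, 3 and 7 enter these ratios, so the counts are no independent support.

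**Figure D5:**
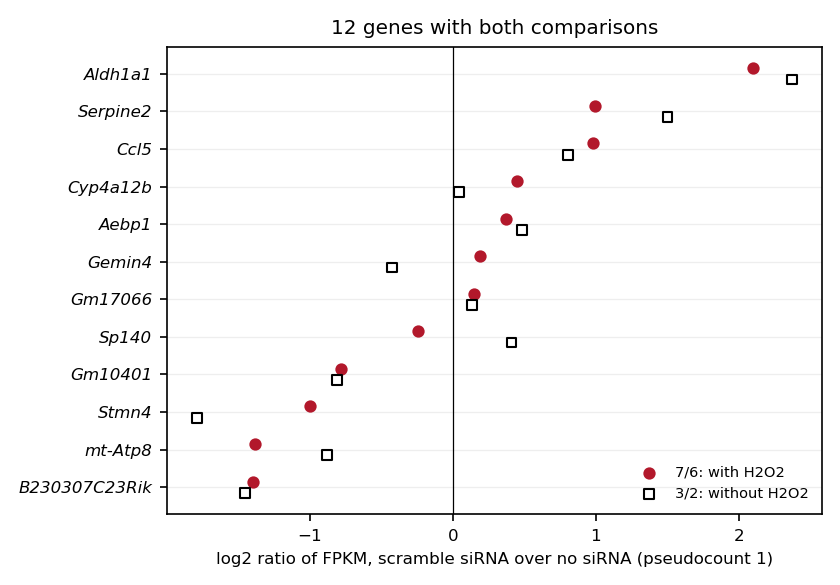
Log2 ratio of scramble siRNA over no siRNA (horizontal axis) for the 12 genes that have both comparisons, with H2O2 (library 7 over 6, filled circles) and without (library 3 over 2, open squares). Aldh1a1 stands at 2.10 and 2.37, and Gemin4 and Sp140 have their 2 points on opposite sides of 0.

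Most of these genes were also higher with Wnt3a under H2O2, since 172 of the 199 were higher in library 6 than in library 5. Of those 172, library 7 was above library 6 in 76, between libraries 5 and 6 in 83 and below library 5 in 13. Ccl20 (97.7 FPKM in library 7, against 40.1 in library 6 and 5.80 in library 5) is of the first kind, and Lbp (38.3 FPKM in library 7, against 90.0 in library 6 and 6.00 in library 5) of the second. Epha7 (4.07 FPKM in library 7, against 11.6 in library 6 and 6.32 in library 5) is of the third.

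The most abundant genes after Ccl2 were Cxcl1 and Tmem176b, a membrane protein of immune and epithelial cells, at 781 FPKM in library 7 and 865 in library 6 (-0.15). At the minimum of 5 FPKM, the nearest genes inside were Slc2a9 (5.00 FPKM in library 7 and 3.49 in library 6) and Cyp4a12b (5.04 FPKM in library 7 and 3.42 in library 6). Just outside were Rnf122 (3.72 FPKM in library 7 and just under 5 in library 6) and C1s1 (2.51 FPKM in library 7 and 4.98 in library 6). Of the 199 genes, 166 were at 5 FPKM or more in both libraries, 17 only in library 7 and 16 only in library 6. The choice by level enters the ends of the range: 4 of the 18 higher genes reached 5 FPKM only in library 7, and 9 of the 26 lower ones only in library 6.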

How the data were processed

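RNA was read as 1 library per group from conditionally immortalized mouse proximal tubule cells, with reads of 100 nt. Per the submitters' processing notes, TopHat2, Cufflinks and Cuffdiff were used on the build mm10, with no version, annotation or strand setting given. The authors deposited FPKM values in tables of all genes for libraries 8, 9 and 10 against 7 and in lists of chosen genes for libraries 1, 2, 5 and 6 and for libraries 3, 4, 7 and 10. No total counts accompany them, so depth is unknown and no interval was computed.

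Genes were joined by identifier, with library 7 from the table of 10 against 7. The level of library 7 in the tables of 8 and 9 was 0.997 and 0.999 times that. Ratios are log2 of FPKM with a pseudocount of 1, computed with Python 3.11.15, pandas 2.3.3 and numpy 2.4.6 and checked on simulated data. Genes named were the 12 highest and 12 lowest ratios (small RNA, predicted, Rik, histone and mitochondrial symbols left out), up to 4 per list, the 3 most abundant, Axin2 and the 4 nearest the minimum. Members, lists and rules were chosen with earlier results of these data known. Gene positions and shared exons are from GENCODE M21. Alternatives were other minimum levels, pseudocounts, centring, tables and libraries.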

Additional observations from a re-analysis of the deposited data

Results flagged for a closer look

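2 of the 12 genes measured with and without H2O2 had ratios of scramble siRNA over none on opposite sides of 0, and the difference was not tested, since each group is 1 library. Gemin4, a member of the complex that assembles splicing particles, had 13.2 FPKM in library 7 and 11.5 in library 6, a log2 ratio of 0.19, and 8.86 FPKM in library 3 and 12.2 in library 2, a log2 ratio of -0.43, so the ratio with H2O2 was larger by 0.61. Glod4, on the same strand, covers 89.8% of the exonic bases of Gemin4, so reads there may belong to either gene. Sp140, a nuclear body protein, had 7.71 FPKM in library 7 and 9.32 in library 6 (-0.24), and 10.7 FPKM in library 3 and 7.80 in library 2 (0.41), a difference between the ratios of -0.65. Of its exonic bases 26.4% are shared with Gm17017 on the opposite strand.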

How the results depend on the processing

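Over the alternatives that kept library 7, no median or named ratio changed sign. With library 9 in place of library 7, the ratios of some named genes did. Among them, Ccl5 went to -0.42, Zhx2 to -0.54 and Selo to 0.16. The 6 genes higher at 2-fold became 12 with a minimum of 1 FPKM (533 genes) and 12 with none (1593 genes). The 10 lower ones became 6 with library 9 in place of library 7 (chosen after seeing the data). With a pseudocount of 0.1, the counts over the same 199 genes were 9 higher and 13 lower. List medians that crossed 0.58 in at least 1 setting were tubular injury, 0.49 with a minimum of 1 FPKM or none, matrix, 0.68 with a minimum of 10 FPKM (133 genes), and retinoid genes, 1.30 with a minimum of 10 FPKM, 0.61 with a pseudocount of 0.1, 0.58 when centred and 0.01 with no minimum. Without crossing it, the acute-phase median moved to -0.22 with a minimum of 1 FPKM or none, and the transporter median to 0.05 with a minimum of 10 FPKM or with library 7 from another table. The causes were not tested, beyond the change in genes that a minimum makes. Havcr1 was just under 2-fold with library 7 from another table. Counts of genes outside the siRNA libraries stayed within 1.5 times. No paired analysis was possible because each group has 1 library, and for the same reason no replicate could be left out. Differences in weak genes are limited by an unknown depth.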
